A study of Sus scrofa with 3 samples.

Results

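Circadian clock genes were examined in liver RNA of male Chinese Wuzhishan miniature pigs, sequenced as 1 pooled library for each of 3 groups. By the labels all pigs were 6 to 7 months old. The pigs were kept in single pens under a light and dark cycle, and ate a diet rich in fat and cholesterol (HFC). The labelled age was that of the pigs when they were obtained. They were older when the livers were taken, after weeks of acclimation and then of HFC feeding. IM pigs were intact males that had a sham operation, CM pigs were surgically castrated, and CMT pigs were castrated and injected weekly with testosterone propionate from the day of castration. The labels give 3 pigs in each pool, so each group gives a single value and nothing shows how the pigs of a group varied. The list of 10 clock genes was chosen by name, and a gene was taken when its symbol was an entry of the expression tables, which hold 34579 features. This gave 8 genes, which were ARNTL, CLOCK, PER1, PER2, PER3, CRY1, CRY2 and NR1D2. DBP was found under its NCBI gene number, which makes 9 genes with values, and NR1D1 was not analysed here. The hour at which the pigs were killed and the time since their last meal are not given in the sources used here.

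The mammalian clock is a transcriptional loop that runs in nearly every cell, including hepatocytes. ARNTL (also named BMAL1) and CLOCK form the activating pair, the positive limb, which binds E-boxes and drives the PER and CRY genes. PER and CRY proteins build up and block that pair, and so form the negative limb. The REV-ERB receptors NR1D1 and NR1D2 are driven by the same pair and repress ARNTL, ROR receptors activate ARNTL at the same elements, and DBP carries the rhythm to output genes. In liver, ARNTL mRNA peaks at a time of day when the mRNAs of the PER genes, the NR1D genes and DBP are low, and PER1 and PER2 also respond to glucocorticoids and feeding.

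Expression is given in the deposited values, named FPKM by the authors, which can be compared between genes of a library because they are per length. Reads behind each value were recovered from the step size of the values. An FPKM of 1 stood for 2.51 reads per kilobase in IM, 3.42 in CM and 2.04 in CMT, which is far fewer than a standard FPKM would give at the totals below. The deposited values are therefore larger than a standard FPKM, a level of 1 is a low minimum, and the scale between libraries is not proportional to their reads. The IM library held 32197617 such reads, the CM library 36126735 and the CMT library 25419871. Intervals are 95% exact intervals on these reads and cover counting error only. Reads were even in all 3 libraries for 37.0% of 13571 features with at least 20 reads in each, against 12.5% if odd and even numbers were equally likely, so the 2 mates of a fragment may often have been counted separately, and the intervals are too narrow for such genes, among them 5 of the 9 clock genes. A gene was called higher or lower when it differed at least 1.5-fold and reached an FPKM of 1 in each of the libraries, and all 9 clock genes were above that minimum. With 1 library per group no p-value was computed. The hepatocyte marker ALB, the main plasma protein, was at 690375 in IM, with 476360 in CM and 445509 in CMT, and all 6 hepatocyte markers examined were above the minimum.

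Within each library the clock genes covered a wide range of levels, and their order was not the same in the 3 pools. In IM, PER1 was highest at an FPKM of 353, above CRY2 at 147, NR1D2 at 126, PER2 at 123, DBP at 106, PER3 at 74.9, ARNTL at 33.0, CRY1 at 31.1 and CLOCK at 22.1. In that order the intervals of neighbours overlapped only between NR1D2 and PER2 and between ARNTL and CRY1. In CM, CRY2 at 178, NR1D2 at 168 and PER1 at 168 shared the top with overlapping intervals, and PER2 stood in sixth place at 37.4. In CMT, PER1 was again highest at 200.2, and ARNTL at 53.8 had an interval that overlapped that of PER3 at 52.6. CLOCK had the lowest level of the 9 genes in every library, although its interval overlapped that of ARNTL in IM and in CM. In IM, PER1 exceeded 87.0% of the mRNA features above the minimum and CLOCK exceeded 31.3% of them.

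**Figure D1:**
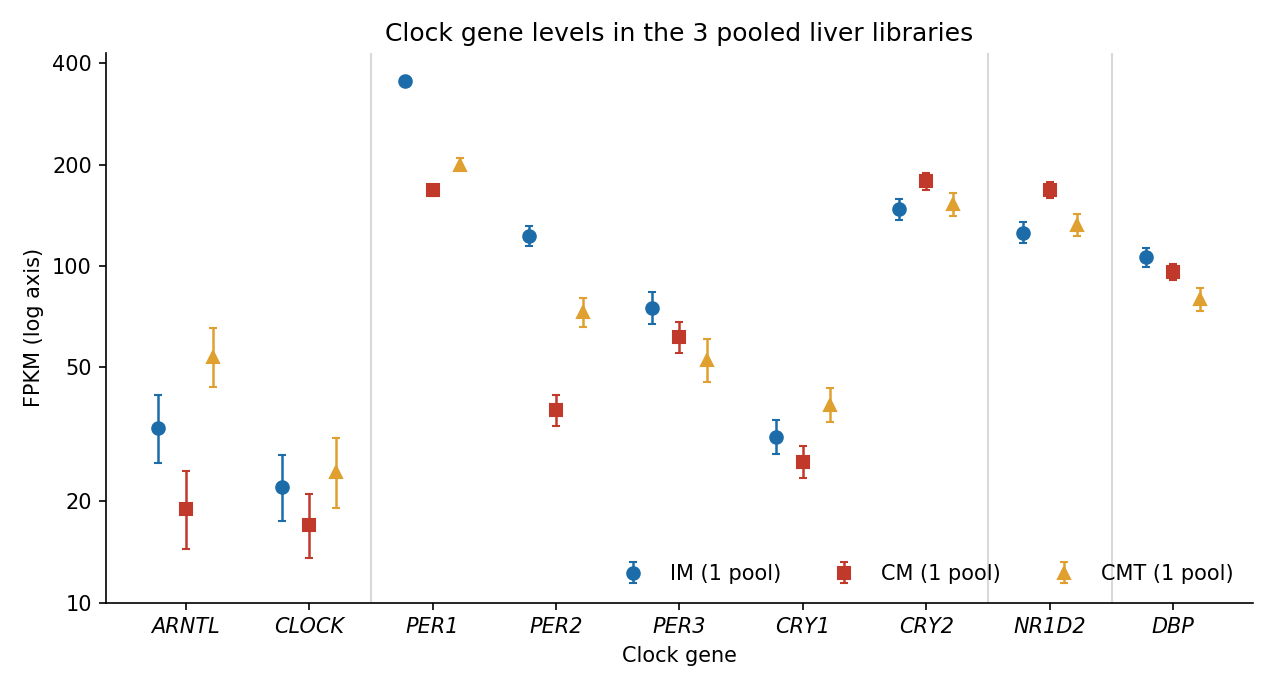
FPKM of the 9 clock genes on a log axis in the pooled libraries IM (circles), CM (squares) and CMT (triangles), with bars for 95% counting intervals; vertical lines separate the positive limb, the PER and CRY genes, NR1D2 and DBP. PER2 is at 123 in IM, against 37.4 in CM and 72.9 in CMT, and ARNTL is lowest in CM and highest in CMT.

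ARNTL, the activating subunit without which the clock stops, had a level of 33.0 in IM, against 19.0 in CM and 53.8 in CMT. These values rest on 74, 58 and 98 reads. CM was lowest and CMT highest. ARNTL was 1.74-fold lower in CM than in IM (ratio 0.575, interval 0.401 to 0.822), 2.83-fold higher in CMT than in CM (2.03 to 3.99) and 1.63-fold higher in CMT than in IM (1.19 to 2.23). The call of ARNTL in CM versus IM was lost when the libraries were scaled to equal column sums (log2 ratio -0.54) or to the total of recovered reads (-0.52), against -0.80 as deposited. Its ratio of CMT to CM was above that of 98.2% of mRNA features. CLOCK, the partner of ARNTL, followed the same order in smaller steps, at 22.1 in IM, against 17.0 in CM and 24.4 in CMT. CLOCK passed 1.5-fold in no comparison, and its ratio of CM to IM of 0.771 had an interval of 0.561 to 1.06. The number of recovered reads was the smallest for these 2 genes, so their intervals were the widest. A factor common to a gene's reads can be lost in the recovery, so the true reads may be more.

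PER1 and PER2, the inhibitors that also respond quickly to hormones, were lower in CM than in IM as well. PER1 had a level of 353 in IM, against 168 in CM and 200.2 in CMT, from 4252, 2748 and 1958 reads. It was 2.11-fold lower in CM than in IM (interval 2.01 to 2.21) and 1.76-fold lower in CMT than in IM (1.67 to 1.86). Its ratio of CMT to CM was 1.19 (1.13 to 1.27), and was close to 1 with either scaling to library totals (log2 0.0090 and 0.018). IM therefore stood apart, and both castrated pools were low. PER2 was at 123 in IM, against 37.4 in CM and 72.9 in CMT, from 854, 354 and 412 reads. It was 3.29-fold lower in CM than in IM (2.90 to 3.73), 1.95-fold higher in CMT than in CM (1.69 to 2.26) and 1.68-fold lower in CMT than in IM (ratio 0.594, interval 0.526 to 0.668). Only 1.30% of mRNA features had a lower ratio of CM to IM than PER2, which made it the most extreme of the 9 genes in that comparison.

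PER3, a PER protein with a weaker role in keeping time, was at 74.9 in IM, against 61.4 in CM and 52.6 in CMT. Its lowest value was in CMT, where the ratio to IM was 0.701 (interval 0.583 to 0.842), while the ratio of CM to IM was 0.819 (0.704 to 0.953). CRY1, a repressor of the ARNTL and CLOCK pair, was at 31.1 in IM, against 26.2 in CM and 38.8 in CMT, the same order of libraries as ARNTL and CLOCK. CRY1 was 1.48-fold higher in CMT than in CM (1.26 to 1.73), just inside the 1.5-fold threshold, and its ratio of CM to IM of 0.843 (0.719 to 0.989) passed to just above 1 with either scaling to library totals (log2 0.011 and 0.034). CRY1 rested on 296, 340 and 300 reads. CRY2, its paralog, was instead highest in CM, at 147 in IM, against 178 in CM and 153 in CMT, and its ratio of CM to IM was 1.21 (1.10 to 1.33).

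NR1D2, a REV-ERB receptor that represses ARNTL, was at 126 in IM, against 168 in CM and 132 in CMT. Its level was highest in the library in which ARNTL was lowest, with a ratio of CM to IM of 1.34 (interval 1.23 to 1.46) and of CMT to CM of 0.788 (0.718 to 0.864). With either scaling to library totals NR1D2 was called higher in CM versus IM, at log2 ratios of 0.68 and 0.70. DBP, an activator at D-boxes and a direct output of the loop, was at 106 in IM, against 96.1 in CM and 79.6 in CMT. The ratio of CMT to IM for DBP was 0.751 (0.679 to 0.830), and DBP passed 1.5-fold in no comparison. Its ratio of CM to IM, 0.906 (0.834 to 0.985), was above 1 with either scaling to library totals (log2 0.11 and 0.14).

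Between CM and IM, 0 of the 9 clock genes were called higher and 3 were called lower, namely ARNTL, PER1 and PER2. Of 15613 mRNA features 11.1% were called higher and 12.1% lower in that comparison. Over the 9 genes the median log2 ratio was -0.29, and over all mRNA features it was -0.020. With either scaling to library totals, 1 clock gene was called higher and 2 lower. Between CMT and CM, 2 were called higher, ARNTL and PER2, and 0 lower, against 12.1% and 13.5% of mRNA features, with medians of 0.26 and 0.013. Between CMT and IM, ARNTL was called higher and PER1 and PER2 lower, against 6.67% higher and 10.1% lower among mRNA features, with medians of 0.049 and -0.0072. The comparisons share libraries and are not independent of one another. At these background shares about 1 of 9 genes would be called in either direction, so the single gene called higher in CMT versus IM is near the background, and the other counts are a description of few genes.

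**Figure D2:**
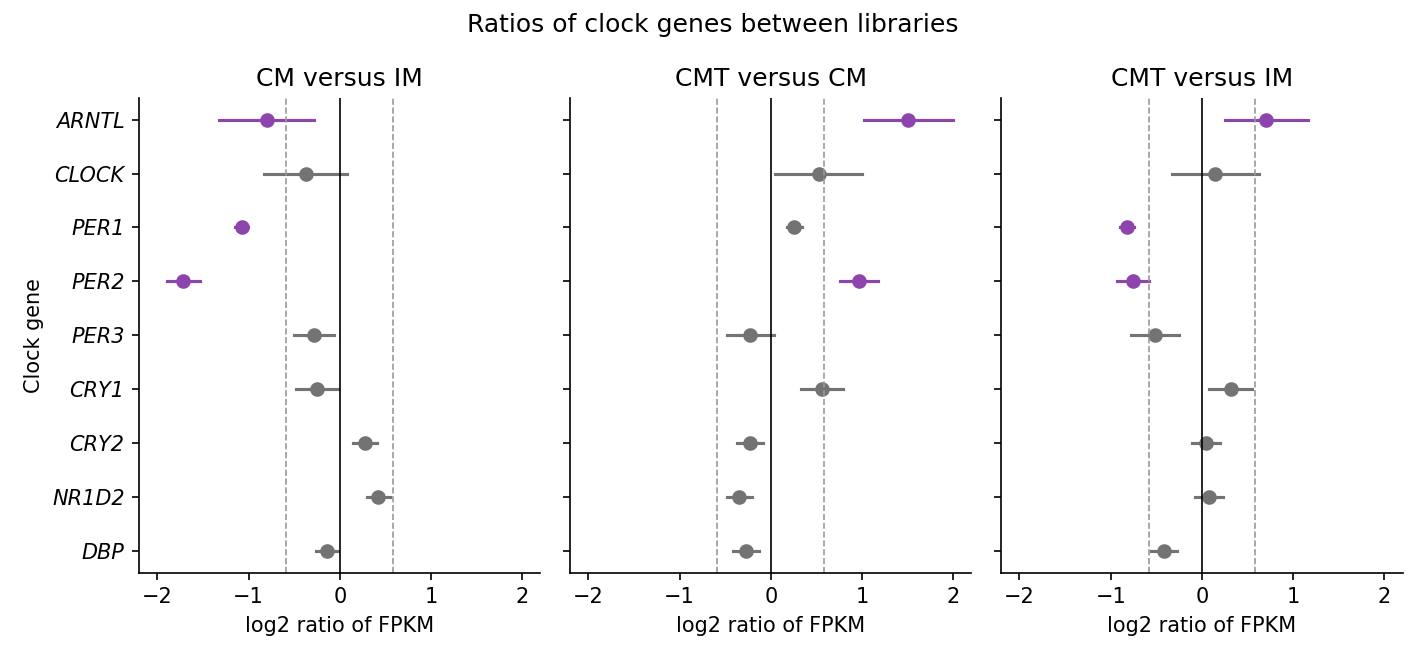
Log2 ratio of FPKM for each clock gene in the 3 comparisons, with 95% counting intervals; dashed lines mark 1.5-fold and purple points are called genes. ARNTL, PER1 and PER2 are called lower in CM versus IM, and ARNTL alone is called higher in CMT versus IM.

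The counting interval of the ratio left out 1 for 8 of the 9 genes in CM versus IM, for 8 in CMT versus CM and for 6 in CMT versus IM. Among mRNA features with recovered reads, 49%, 48.9% and 37.1% had such an interval. With 0.5 times the reads, which stands for both mates counted in every pair and was chosen after seeing the data, the numbers were 5, 7 and 5. The intervals of CLOCK, PER3, CRY1 and DBP then held 1 in CM versus IM, while the intervals of all called genes still left out 1. For CLOCK the interval also held 1 in CMT versus CM (0.895 to 2.30) and in CMT versus IM, so its order over the libraries was within counting error at that setting. The share of mRNA features at that setting was not computed, so the shares above do not serve as background for the counts 5, 7 and 5. In the deposited values CM was the lowest of the 3 libraries for 5 genes, ARNTL, CLOCK, PER1, PER2 and CRY1, against 38.7% of mRNA features. It was the highest for CRY2 and NR1D2, against 35.2%. With either scaling to library totals CM was no longer the lowest for CRY1, and PER1 was nearly level between CM and CMT. The shares of mRNA features were computed on the deposited values only.

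**Figure D3:**
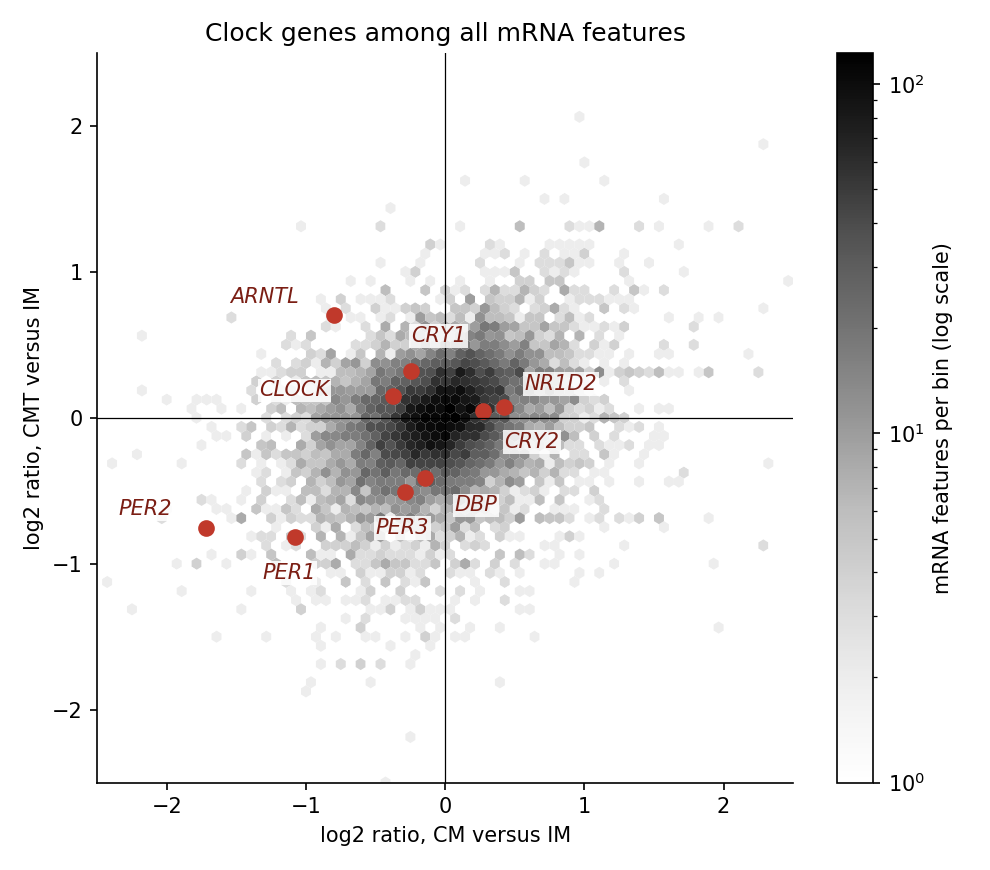
Log2 ratio of CM to IM (x axis) against log2 ratio of CMT to IM (y axis) for mRNA features above the minimum, as gray bins on a log scale, with the 9 clock genes in red; 15459 features are inside the axes and 154 outside. PER1 and PER2 lie at the lower left, while ARNTL lies at the upper left, low in CM and high in CMT; both axes use the IM library.

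ARNTL and CLOCK were compared with the other genes to see whether the 2 sets differed in opposite directions. The other genes include NR1D2 and DBP beside the negative limb, and the comparison does not measure a time of day. The mean log2 ratio of ARNTL and CLOCK minus the mean of the 7 other genes was used, a value that does not depend on how the libraries are scaled. For CM versus IM the 2 sets did not part, with means of -0.59 for ARNTL and CLOCK and -0.40 for the others. The difference was -0.19 (counting SE 0.17). The others were not of 1 kind, since the mean was -0.61 over the PER and CRY genes and 0.14 over NR1D2 and DBP. For CMT versus CM the means were 1.01 and 0.10, a difference of 0.91 (counting SE 0.17). For CMT versus IM the mean was 0.43 for ARNTL and CLOCK and -0.29 for the others, with a difference of 0.72 (counting SE 0.17). The first mean was carried by ARNTL at 0.70, while CLOCK was at 0.15 with an interval of -0.33 to 0.62. Among the others, CRY1, CRY2 and NR1D2 were not lower in CMT than in IM, with log2 ratios of 0.32, 0.049 and 0.077. These are differences between 3 pools without replicates.

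Levels relative to ARNTL within a library do not depend on scaling either. PER1 stood at 10.7 times the level of ARNTL in IM, 8.82 times in CM and 3.72 times in CMT. PER2 stood at 3.72 times ARNTL in IM, 1.97 times in CM and 1.35 times in CMT. Relative to ARNTL, both PER genes were thus lowest in CMT. NR1D2 behaved differently, at 3.80 times ARNTL in IM, 8.85 times in CM and 2.46 times in CMT, and CRY2 was at 4.47, 9.39 and 2.84 times. DBP was at 3.21 times ARNTL in IM, 5.06 times in CM and 1.48 times in CMT. All 8 genes were lowest relative to ARNTL in CMT, but the 8 ratios share the ARNTL value, which was highest in CMT and rests there on 98 reads, so they are not separate observations.

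**Figure D4:**
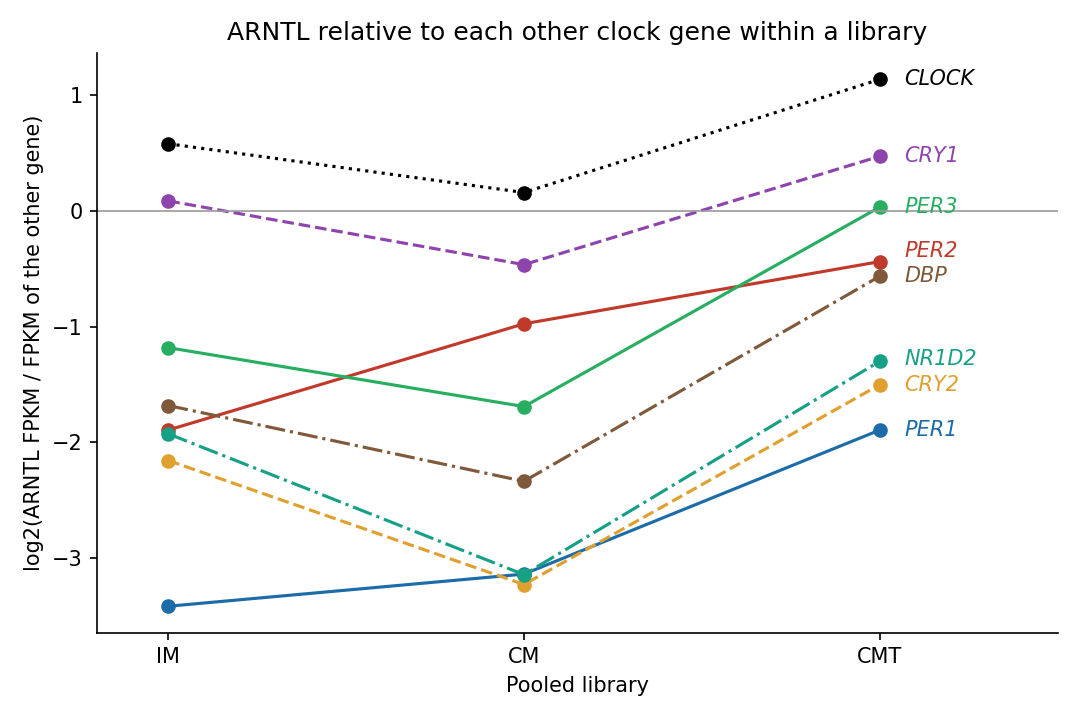
Log2 of the FPKM of ARNTL over the FPKM of each other clock gene in the pooled libraries IM, CM and CMT; lines join the values of 1 gene and stand for no order of the pools. Every line is highest in CMT, and from IM to CM the lines of PER1 and PER2 go up while the other 6 go down.

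ROR receptors and paralogs of the clock genes were taken as the next list. RORA, an activator of ARNTL, had a level of 125 in IM, against 30.9 in CM and 120 in CMT, so that CM stood apart from the other pools. It was 4.06-fold lower in CM than in IM. NPAS2, which can stand in for CLOCK, was at 7.79 in IM, against 11.2 in CM and 6.12 in CMT. Of the 5 genes of the list 3 were above the minimum, and 0 were called higher and 1 lower in CM versus IM, against 11.1% and 12.1% of mRNA features. Scaled to the total of recovered reads, 1 was higher and 1 lower. ARNTL2 was listed at an FPKM of 0.366 in IM, against 0.537 in CM and 0 in CMT, and RORB at 0 in all 3 libraries.

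NFIL3 binds the D-boxes that DBP uses and represses there. It was at 725 in IM, against 202 in CM and 635 in CMT, that is 3.58-fold lower in CM than in IM, while its related activator HLF was at 111, 118 and 98.6. TEF was not analysed here. NFIL3 and RORA were thus lowest in CM, as ARNTL was, but further below IM. The call of ARNTL in CM versus IM depended on the scaling. Unlike ARNTL, NFIL3 and RORA were slightly lower in CMT than in IM, with log2 ratios of -0.19 and -0.066.

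Modifiers of the clock, which include kinases, ubiquitin ligases, transcription factors and cofactors, all differed less than 1.5-fold in CM versus IM. BHLHE40 came nearest to the threshold, at 1.48-fold lower. Of 16 genes 0 were called higher and 0 lower, against 11.1% and 12.1% of mRNA features, with a median log2 ratio of -0.12, and 1 was called higher when scaled to the total of recovered reads. The DNA and RNA binding cofactor NONO was at 678 in IM, against 658 in CM and 638 in CMT, and the casein kinase 2 subunit CSNK2B at 450.1, 443 and 454. In CMT versus IM, 0 were called higher and 3 lower, against 6.67% and 10.1% of mRNA features. These were BHLHE40, CSNK1E and FBXL21. The same 3 were called lower in CMT versus CM, where 0 were called higher, against 13.5% and 12.1% of mRNA features.

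Among rhythmic liver genes, 2 of 11 were called higher and 5 lower in CM versus IM, where the shares of mRNA features were 11.1% and 12.1%. In CMT versus IM, 0 were called higher and 7 lower, where the shares were 6.67% and 10.1%. ALAS1, the first enzyme of heme synthesis, which the tables class as miscRNA, was at 1522 in IM, against 442 in CM and 711 in CMT. GYS2, the liver glycogen synthase, was at 2514, 964 and 1442, the deubiquitinase USP2 at 133, 54.8 and 76.6, and the transcription factor KLF9 at 693, 292 and 431. All 4 of these had the order of PER1 and PER2, with IM highest and CM lowest. WEE1, a kinase that holds back mitosis, went the other way, at 11.1 in IM, against 25.2 in CM and 5.21 in CMT, where it rested on 47, 146 and 18 reads. CYP7A1, the rate-limiting enzyme of bile acid synthesis, was 1.63-fold higher in CM than in IM.

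Genes known to respond to fasting, feeding and glucocorticoids also differed between the pools. Of 7 measured genes of 10 induced by fasting, 0 were called higher and 6 lower in CM versus IM, against 11.1% and 12.1% of mRNA features. In CMT versus CM, 4 were called higher and 1 lower (background 12.1% and 13.5%), and in CMT versus IM 0 higher and 4 lower (background 6.67% and 10.1%). Scaled to the total of recovered reads, 4 were lower in CM versus IM and 2 in CMT versus IM, and 2 were higher and 1 lower in CMT versus CM. The gluconeogenic enzyme PCK1 was at 15266 in IM, against 6514 in CM and 11000 in CMT, with the amino acid enzyme TAT at 10757, 4380 and 7074, the binding protein IGFBP1 at 17280 in IM, against 8005 in CM and 11328 in CMT, and the hormone FGF21 at 34.8, 11.4 and 22.5. PDK4, a kinase that holds back glucose oxidation, had another pattern, at 1046 in IM, against 905 in CM and 216 in CMT, and was 4.19-fold lower in CMT than in CM and 4.84-fold lower in CMT than in IM. Of 10 genes induced by feeding, 3 were called higher and 3 lower in CM versus IM, and 5 higher and 0 lower in CMT versus IM, with the same background shares. ACACA, the first enzyme of fatty acid synthesis, was at 158 in IM, against 64.9 in CM and 140.1 in CMT, with THRSP, a lipogenic regulator, at 550.2, 262 and 1360, and PNPLA3, a lipid droplet protein, at 3.78, 9.34 and 17.4 from only 11, 37 and 41 reads. The feeding list thus held genes that differed in opposite directions in CM. G6PC, PPARGC1A and IRS2 were not analysed here.

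All 6 genes induced by glucocorticoids were called lower in CM versus IM, against 12.1% of mRNA features, with a median log2 ratio of -1.33, and 5 were when scaled to the total of recovered reads. In CMT versus CM, 3 were called higher and 0 lower, against 12.1% and 13.5%. FKBP5, a chaperone of the glucocorticoid receptor, was at 427 in IM, against 106 in CM and 370.3 in CMT, TSC22D3 at 752 in IM, against 282 in CM and 630.4 in CMT, and the transcription factor ZBTB16 at 66.2, 12.2 and 76.5. Several of these genes also respond to androgens. In CMT versus IM 0 were called higher and 2 lower, against 6.67% and 10.1%, with a median of -0.41. The 2 lower genes were KLF9, 1.61-fold lower, and the phosphatase DUSP1, which was at 2021 in IM, against 1294 in CM and 926 in CMT. KLF9 belongs to this list and to the rhythmic list. The part of feeding state, of hormones and of the hour of sampling in the values of the clock genes was not tested.

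**Figure D5:**
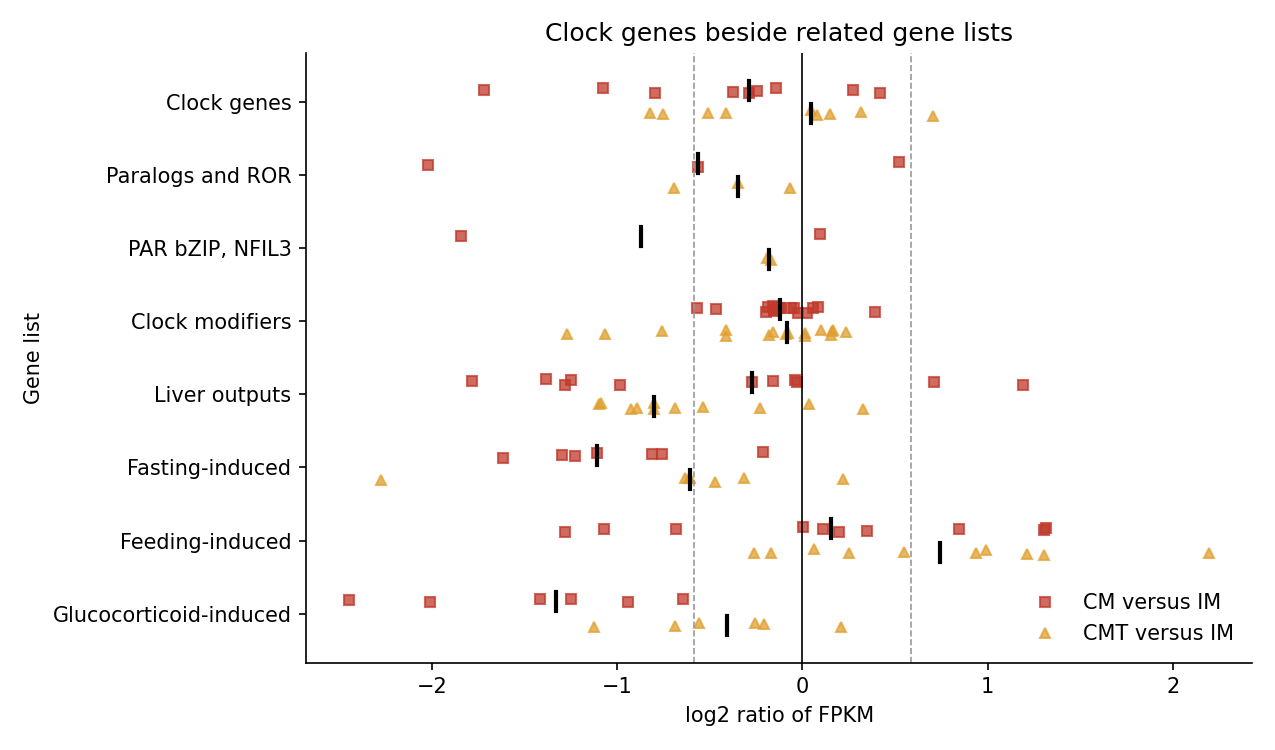
Log2 ratio of FPKM for CM versus IM (squares) and CMT versus IM (triangles), 1 point per gene above the minimum, for the 9 clock genes and 7 related lists; black bars are medians and dashed lines mark 1.5-fold. The 6 glucocorticoid-induced genes are all beyond 1.5-fold lower in CM, while the 16 clock modifiers are all within 1.5-fold in CM versus IM.

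Markers of cell types also differed between the pools. The red blood cell genes HBB and ALAS2 were 5.05-fold and 4.78-fold lower in CM than in IM, and their list summed to an FPKM of 17241 in IM, against 3416 in CM and 5185 in CMT, with AHSP at 0 in CM. The macrophage gene MARCO was at 414 in IM, against 82.8 in CM and 317 in CMT, while the 4 macrophage markers measured summed to 8832, 7534 and 9129. Of the 6 hepatocyte markers, 0 were called higher and 1 lower in CM versus IM, against 11.1% and 12.1% of mRNA features. The lower gene was FGB, a fibrinogen chain, at 46989 in IM, against 21358 in CM and 67812 in CMT. In CMT versus IM, 0 were called higher and 1 lower, against 6.67% and 10.1%. There the lower gene was ALB, at 1.55-fold, while the ratio of FGB was 1.44. The 4 bile duct markers summed to 89.4 in IM, against 159 in CM and 102 in CMT. Of these, 3 were called higher in CM versus IM, against 11.1% of mRNA features. KRT7, which is classed as miscRNA, was at 12.9, 46.1 and 21.8 from only 16, 78 and 22 reads. The 4 T and NK cell markers summed to 364, 497 and 280.3, and 0 were called higher in CM versus IM, against 11.1% of mRNA features. In CMT versus CM, 0 were called higher and 3 lower, against 12.1% and 13.5%. In CMT versus IM, 0 were called higher and 2 lower, against 6.67% and 10.1%. CD2 was at 84.9, 117 and 56.5 and NKG7 at 166, 218 and 151. Of the B cell, stellate and endothelial markers, 1 was called in CM versus IM, an endothelial gene called lower. The shares of mRNA features were 11.1% called higher and 12.1% lower. CD79A was at 18.6, 21.5 and 12.3 and MS4A1 at no more than 6.57 in any library among B cell genes, COL3A1 at 538, 519 and 457 and DCN at 145, 130.3 and 125 among stellate genes, and PECAM1 at 422, 340.2 and 418 and CLEC4G at 2487, 1975 and 2318 among endothelial genes. Fewer cells of a type and less RNA per cell cannot be told apart in such pools, and the part of cell composition in the values of the clock genes was not tested.

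Few genes lay near the measured ratios of ARNTL. Among 12127 mRNA features that reached an FPKM of 10 in each library, 7 lay within 0.1 of ARNTL, by the distance over the log2 ratios of CM and of CMT to IM. The nearest were DENND3 at a distance of 0.065, CRYAB at 0.067, SFXN1 at 0.068, SERPINA7 at 0.074 and LOC102166672 at 0.078. Around DBP, whose ratios were small, 155 features lay within 0.1, and the nearest were LOC100518100 at 0.0062, USP38 at 0.0092, TBC1D10C at 0.012, STRIP2 at 0.017 and FAM208B at 0.017. The log2 intervals of ARNTL were much wider than 0.1, at -1.32 to -0.28 for CM versus IM and 0.25 to 1.16 for CMT versus IM. Those of DBP, at -0.26 to -0.022 and -0.56 to -0.27, were narrower but still wider than 0.1. Which genes are nearest, and how many are near, is therefore not settled by these reads. A likeness over 3 libraries describes these pools only.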

How the data were processed

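Total liver RNA from pigs of a group, 3 by the labels, was pooled in equal amounts, selected for poly-A, and sequenced as paired-end reads on a HiSeq2000. The authors mapped the reads to the pig genome (Sscrofa10.2) with TopHat after FastQC and deposited FPKM values per feature. The program that counted reads and the annotation are not given in the sources used here. FPKM values were used without rescaling or a pseudocount.

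The modal ratio of values between libraries gave the divisors 2.51 for IM, 3.42 for CM and 2.04 for CMT, the reads per kilobase at an FPKM of 1. The smallest length of up to 10000 bases that made all 3 values whole gave the reads, for 95.1% of 24277 features above 0. A factor common to a gene's reads can be lost. The recovery was tested on simulated data. Ratio intervals are Clopper-Pearson, level intervals exact Poisson, and the SE of the limb difference is a delta-method value from the reads.

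DBP was matched through the RefSeq gene table of Sscrofa11.1, as were FBXL21, CIART, PNPLA3, KRT7, KRT19 and AHSP. The limb comparison was planned with 8 other genes and used 7, without NR1D1. A planned search of promoters for motifs was not run, since no promoter sequence was used here. The genes and lists were chosen with earlier results of these data known. Named genes were all 9 members, the genes of each list at least 2-fold apart in CM versus IM or else the 2 with the highest mean, and the 5 nearest in pattern to ARNTL and to DBP. The list genes NPAS2, ARNTL2, RORB, HLF, BHLHE40, CSNK1E, FBXL21, CYP7A1, PDK4 and DUSP1 were named after their values were seen. Some list genes are not reported here. Alternatives were 4 scalings, other minima, a pseudocount of 1, a 2-fold threshold, other limb definitions and, added after seeing the data, leaving out DBP and 0.5 times the reads. Python 3.11.15, numpy 2.4.6, pandas 2.3.3, scipy 1.17.1 and matplotlib 3.10.9 were used.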

Additional observations from a re-analysis of the deposited data

How the results depend on the processing

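No paired analysis was possible because each group is 1 pooled library. Scaling mattered most for the comparisons with CM. Scaling to equal column sums shifted every log2 ratio of CM to IM by 0.26, and scaling to the total of recovered reads by 0.28, which moved the median of all mRNA features to 0.24 and 0.26. ARNTL was then at -0.54 and -0.52 and no longer called, NR1D2 was at 0.68 and 0.70 and called higher, and the log2 ratios of DBP (0.11 and 0.14) and CRY1 (0.011 and 0.034) changed sign. PER1 and PER2 remained called lower. With equal column sums NR1D2 was also called lower in CMT versus CM, at -0.59. Neither median-ratio nor upper-quartile scaling changed a call among the clock genes. A threshold of 2-fold left 2 clock genes called in CM versus IM, both lower, 1 in CMT versus CM and 0 in CMT versus IM. The share of all mRNA features called at 2-fold was not computed. The limb difference does not depend on scaling. With ARNTL alone as the positive limb it was 1.40 in CMT versus CM, and with NR1D2 and DBP as the only other genes it was -0.73 in CM versus IM and 1.32 in CMT versus CM, while with only the PER and CRY genes it was 0.024 in CM versus IM. CLOCK rested on 72 to 84 recovered reads, and the intervals of its ratios of CM and of CMT to IM held 1.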

Other observations

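Ratios between paralogs within a library, which no scaling changes, were looked at after the values were seen. PER1 stood at 2.88 times PER2 in IM, 4.49 times in CM and 2.75 times in CMT, so that PER2 was lower relative to PER1 in the CM pool than in the other pools. CRY1 stood at 0.211 times CRY2 in IM, 0.147 times in CM and 0.254 times in CMT. The log2 ratio of ARNTL to CLOCK was 0.58 in IM, 0.16 in CM and 1.14 in CMT. PER2 and NR1D2 had nearly the same level in IM, at a ratio of 0.978, while PER2 was at 0.222 times NR1D2 in CM and at 0.550 times in CMT.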
